A study of Homo sapiens with 7 samples.

Results

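Intervals between close tandem genes are the short stretches of DNA in which 1 protein-coding gene ends and the next gene on the same strand begins. They were taken as pairs of adjacent, non-overlapping protein-coding genes on 1 strand in which the transcription end site (TES) of the upstream gene lay at most 5 kb before the transcription start site (TSS) of the downstream gene. The region counted was the interval with 1 kb on either side. This gave 2051 tandem intervals with 3617 genes, of 4580 gaps of at most 5 kb between adjacent protein-coding genes of known orientation (the others comprised 1290 convergent and 1239 divergent gaps). The gaps ran from 4 to 5000 bp with a median of 1998 bp, 1025 lay on the plus and 1026 on the minus strand, 438 held another annotated gene, and 294 (14.3%) lay on chromosome 19.

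The series mapped the phosphorylated threonine 4 (pThr4) on the C-terminal tail of RNA polymerase II by chromatin immunoprecipitation sequencing (ChIP-seq) in HEK293, an established human embryonic kidney cell line. Nuclear lysate was divided into matched portions and treated in vitro either with active SCP1 (SCP1 WT), a phosphatase that removes the phosphate from serine 5 (pSer5) of this tail, or with the catalytically inactive SCP1 D96A mutant, and all chromatin was then precipitated with the pThr4 antibody 6D7. Each group held 3 biological replicates, and an IgG precipitation was not analysed here. The comparison of the groups addressed where pThr4 is hidden from the antibody by a neighbouring pSer5, and both groups differ only in the enzyme added to the lysate, not in the cells.

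The tail, or C-terminal domain, consists of repeated heptads and is phosphorylated and dephosphorylated as the polymerase passes along a gene. Serine 5 phosphorylation is known for the start of transcription and capping, and threonine 4 phosphorylation for the late part of the gene and the region after its end. A polymerase does not stop at the TES: the transcript is cleaved at the poly(A) site while the polymerase goes on, and termination follows further downstream. Where the next gene on the strand is close, this termination zone and the promoter of the next gene share the same DNA, so the TES, the gap and the TSS were read separately.

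The sequences at both edges of such intervals are shown first, since the results turn on these edges. For gaps of at most 209 bp the end of the upstream gene falls into the promoter window that RefSeq (GRCh38.p14) gives for the downstream gene, which held for 56 of 90 such intervals with a window. The last 40 bases before the TES held the poly(A) hexamer AATAAA in 18 of the 56 (32.1%) and its variant ATTAAA, without AATAAA, in 9 (16.1%), read on the sense strand. In the last 40 bases before the TSS of all promoters the shares were 1.10% and 0.492%. The following 30-base pieces were chosen because the TSS just after them was under a peak in 5 or 6 of the 6 libraries, with the hexamer in capitals.
KMT2D-PRKAG1, end of KMT2D, chr12:49018976-49019005, minus strand: gacaAATAAAaaaagaacattttaaataca
GPATCH3-GPN2, end of GPATCH3, chr1:26890484-26890513, minus strand: gaagAATAAAgacgtttactactggagctc
ATP6V0C-AMDHD2, end of ATP6V0C, chr16:2520195-2520224, plus strand: gtccAATAAAgttcttggatgtgacgggcc
MRI1-C19orf53, end of MRI1, chr19:13774254-13774283, plus strand: tctcAATAAAcgttagcttatcattgtcac
NRBP1-KRTCAP3, end of NRBP1, chr2:27442231-27442260, plus strand: ctgtAATAAAagtctactttttgctaaaag
The hexamer began 23, 21, 19, 24 and 24 bases before the TES in these 5 pieces, in the order given. KMT2D (a histone methyltransferase gene) and PRKAG1 (a subunit gene of the kinase AMPK) are 201 bp apart, and the PRKAG1 TSS was under a peak in all 6 libraries.

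At the other edge, the 250 bases before the TSS (RefSeq, GRCh38.p14) are shown for 6 downstream genes whose TSS was under a peak in all 3 active libraries and that are described later. Capitals mark the GC box GGGCGG and the CCAAT box, searched on both strands, so that CCGCCC and ATTGG mark the opposite strand.
KRABD2 promoter, chr17:8376705-8376954, minus strand: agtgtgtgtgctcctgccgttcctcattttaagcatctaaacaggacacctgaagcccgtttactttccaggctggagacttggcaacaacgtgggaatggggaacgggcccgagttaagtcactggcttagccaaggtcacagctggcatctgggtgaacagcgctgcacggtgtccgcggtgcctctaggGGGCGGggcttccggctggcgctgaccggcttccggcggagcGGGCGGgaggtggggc
CXorf38 promoter, chrX:40647562-40647811, minus strand: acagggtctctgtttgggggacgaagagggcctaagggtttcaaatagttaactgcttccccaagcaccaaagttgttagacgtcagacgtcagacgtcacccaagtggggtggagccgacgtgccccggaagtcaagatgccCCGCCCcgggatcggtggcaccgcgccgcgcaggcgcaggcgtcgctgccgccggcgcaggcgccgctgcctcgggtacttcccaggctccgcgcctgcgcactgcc
ST3GAL3 promoter, chr1:43707286-43707535, plus strand: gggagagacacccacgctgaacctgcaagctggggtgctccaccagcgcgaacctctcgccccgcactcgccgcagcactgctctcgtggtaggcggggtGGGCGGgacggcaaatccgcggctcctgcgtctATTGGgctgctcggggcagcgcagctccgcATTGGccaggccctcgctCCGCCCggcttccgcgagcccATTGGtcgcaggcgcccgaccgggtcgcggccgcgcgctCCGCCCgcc
NAT10 promoter, chr11:34105379-34105628, plus strand: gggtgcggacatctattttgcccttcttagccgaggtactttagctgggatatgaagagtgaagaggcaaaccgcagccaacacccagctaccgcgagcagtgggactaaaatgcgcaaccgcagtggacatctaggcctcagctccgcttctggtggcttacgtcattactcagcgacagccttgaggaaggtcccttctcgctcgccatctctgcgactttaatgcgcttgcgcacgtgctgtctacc
C1QBP promoter, chr17:5439156-5439405, minus strand: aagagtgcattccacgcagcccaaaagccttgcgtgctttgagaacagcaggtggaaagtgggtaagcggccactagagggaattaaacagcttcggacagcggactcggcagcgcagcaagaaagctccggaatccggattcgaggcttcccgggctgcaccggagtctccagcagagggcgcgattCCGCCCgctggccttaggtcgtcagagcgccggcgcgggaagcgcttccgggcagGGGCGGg
ARL6IP1 promoter, chr16:18801550-18801799, minus strand: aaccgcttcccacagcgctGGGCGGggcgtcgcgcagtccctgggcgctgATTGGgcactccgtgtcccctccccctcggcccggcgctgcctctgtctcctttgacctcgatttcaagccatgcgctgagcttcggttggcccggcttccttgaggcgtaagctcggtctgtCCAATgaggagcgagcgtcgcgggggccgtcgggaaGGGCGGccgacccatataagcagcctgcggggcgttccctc
Of 13820 protein-coding promoters with a window of this length, 56.0% held GGGCGG, 35.2% CCAAT and 9.63% the TATA motif TATAAA on either strand. The KRABD2 and C1QBP windows each held 2 GC boxes, and the ARL6IP1 window held 2 GC boxes and 2 CCAAT boxes. The ST3GAL3 window held 3 GC boxes and 3 CCAAT boxes, the CXorf38 window held 1 GC box, and the NAT10 window held none of these letters. None of the 6 windows held TATAAA. A window was found for 1467 of the 2051 downstream genes (71.5%), which is too few, so a check of base composition over all intervals is void. The windows found, for gaps of at least 250 bp, are therefore only described. The 210 with a peak over the TSS in all 3 active libraries had a median GC content of 66.4%, with GGGCGG in 74.3% and TATAAA in 1.90%. The 804 with a peak over the TSS in no library had 62.0%, 53.5% and 11.4%, and all 13820 promoters had a median of 62.4%.

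Peaks lay in tandem intervals more often in each library treated with active SCP1 than in any library treated with inactive SCP1. With active SCP1, 38.8%, 29.4% and 57.2% of the 2051 intervals held a peak in replicates 1, 2 and 3 (mean 41.8% ± 14.2, SD, n = 3). With inactive SCP1 the shares were 17.2%, 7.75% and 18.8% (mean 14.6% ± 5.97, SD, n = 3). The groups did not overlap and differed by 27.2 percentage points, at the smallest p that an exact two-sided permutation test of 3 against 3 libraries can give (p = 0.1, also after adjustment over 5 such comparisons). The active lists were longer, with 12625, 6680 and 36892 peaks against 2466, 1163 and 2699. With each list cut to its 1163 strongest peaks the difference was 4.06 points (14.7% against 10.7%, exact permutation p = 0.1), and at a common −log10 p of at least 6 it was 9.70 points.

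The downstream TSS was under a peak more often than the upstream TES. With active SCP1 the TSS base was under a peak in 25.3%, 16.9% and 39.8% of intervals (mean 27.3% ± 11.6, SD, n = 3), and with inactive SCP1 in 9.22%, 3.12% and 10.4% (mean 7.57% ± 3.90, SD, n = 3). The TES base was under a peak in 13.5%, 8.92% and 23.0% with active SCP1 (mean 15.1% ± 7.19) and in 3.36%, 1.66% and 4.14% with inactive SCP1 (mean 3.06% ± 1.27). The groups did not overlap at either edge (exact permutation p = 0.1 for each), nor at the isolated TSSs and TESs described below. The TES share was below the TSS share in 6 of 6 libraries, by 8.36 points on average, with p = 0.03125 in an exact two-sided sign-flip test over libraries, the smallest it can give. This test counts the 6 libraries as independent. Since the lysate was divided into matched portions, same-numbered libraries may share a lysate, and with the 3 numbers as pairs no exact sign-flip test given here can fall below p = 0.25. Both edges were under a peak in 10.9% ± 6.39 of intervals with active and 1.61% ± 0.832 with inactive SCP1 (SD, n = 3 each), a difference of 9.25 points that fell to 5.73 without active replicate 3, the longest list. With equal peak numbers the group differences were 5.82 points at the TSS, 4.21 at the TES and 4.18 at both edges, and the TES share stayed 4.23 points below the TSS share (exact sign-flip p = 0.03125).

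Among intervals that held a peak, the TSS, the TES and both edges together were all more often under a peak with active SCP1. There the TSS was under a peak in 65.1%, 57.6% and 69.7% of called intervals, against 53.7%, 40.3% and 55.2% with inactive SCP1. The difference of 14.4 points (exact permutation p = 0.1) had no overlap between groups, and it was 25.2 points with equal peak numbers. The TES was under a peak in 35.1% of called intervals with active and 21.0% with inactive SCP1 (means), and both edges in 24.5% and 10.6%. The TSS without the TES was under a peak in 41.2%, 39.2% and 38.4% with active and 42.9%, 31.4% and 43.0% with inactive SCP1, where the groups overlapped. Peaks that reached neither edge made up 24.1%, 30.4% and 21.4% of called intervals with active and 37.5%, 47.2% and 35.0% with inactive SCP1. They overlapped the gap or its 1 kb flanks, and some ran on beyond these.

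**Figure D1:**
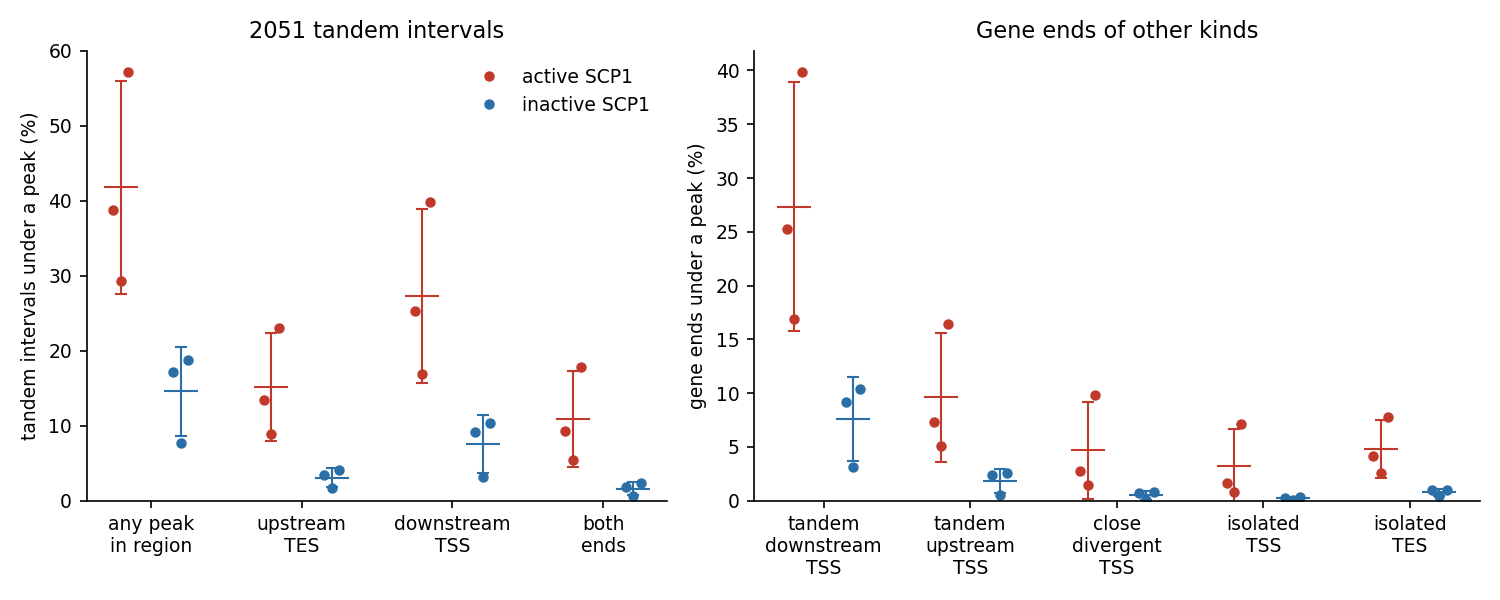
Share of tandem intervals under a peak (left) and share of gene ends of different kinds under a peak (right), in percent, for each library (points) with the mean and SD of each group (bars, n = 3). Active SCP1 libraries lie above inactive SCP1 libraries in every column on the left, and the downstream TSS of tandem pairs (27.3% with active SCP1) lies above the other 4 kinds of gene end plotted on the right.

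Downstream TSSs of tandem pairs were under peaks more often than other TSSs of the same libraries. TSSs that face a gap over 5 kb (12856 isolated TSSs) were under a peak in 1.66%, 0.848% and 7.16% of cases with active and in 0.249%, 0.0700% and 0.319% with inactive SCP1. The tandem TSS share was higher in 6 of 6 libraries, by 15.7 points on average (exact sign-flip p = 0.03125, also after adjustment over the 7 comparisons made within libraries). TSSs of close divergent pairs, which also lie within 5 kb of another gene but face its start, were under a peak in 2.74%, 1.45% and 9.85% with active and 0.686%, 0.0404% and 0.807% with inactive SCP1. The tandem share exceeded these by 14.9 points (6 of 6 libraries, exact sign-flip p = 0.03125, 0.0417 after adjustment over 12 comparisons added once values had been seen). Gap length was not matched here: 884 of the 1239 divergent gaps but 287 of the 2051 tandem gaps were 1 to 500 bp long. The start of the upstream gene of the tandem pairs was under a peak in 7.31%, 5.07% and 16.4% with active and 2.39%, 0.536% and 2.54% with inactive SCP1. This was on average 11.7 points below the downstream TSS (6 of 6 libraries, exact sign-flip p = 0.03125, 0.0417 after the same adjustment). Where tandem pairs follow each other, a gene is downstream in 1 pair and upstream in the next, so these 2 sets of TSSs share genes. With equal peak numbers the tandem TSS share was 8.65 points above isolated and 8.29 points above divergent TSSs (exact sign-flip p = 0.03125 each).

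Downstream TSSs of tandem pairs are 10.5% of the 19607 protein-coding TSSs with a known strand, and they made up a larger part of the TSSs under a peak. In the single lists 55.8%, 60.7% and 35.8% of the TSSs under a peak with active SCP1 were downstream TSSs of tandem pairs, and 68.5%, 77.1% and 67.6% with inactive SCP1. Of 480 TSSs under a peak in all 3 active libraries 309 (64.4%) were of this kind, and of 73 under a peak in all 6 libraries 57 (78.1%). As shares of the intervals, 309 are 15.1% of 2051 where all TSSs gave 2.45%, and 57 are 2.78% where all TSSs gave 0.372%. A peak over the TSS in all 3 active and no inactive library was found at 100 intervals (4.88%) where all TSSs gave 0.872%.

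The TES of the upstream gene also differed from gene ends with free sequence behind them. Isolated TESs, which face a gap over 5 kb (11946), were under a peak in 4.17%, 2.54% and 7.78% of cases with active and in 0.979%, 0.402% and 0.979% with inactive SCP1. The tandem TES share was 6.28 points higher (6 of 6 libraries, exact sign-flip p = 0.03125), and 3.83 points higher with equal peak numbers. It was below that of close convergent pairs, in which 2 genes end towards each other, by 6.22 points (22.9%, 16.6% and 33.5% with active and 7.67%, 3.57% and 7.64% with inactive SCP1 at convergent TESs). It was also 2.88 points below the end of the downstream gene of the same pair (18.3%, 12.8% and 27.4%, and 5.12%, 2.44% and 5.85%). The last 2 differences had the same sign in 6 of 6 libraries (exact sign-flip p = 0.03125 each, 0.0417 after adjustment over the 12 added comparisons). The upstream TESs and the ends of the downstream genes share genes where tandem pairs follow each other. A peak covered the TES in all 3 active libraries at 148 intervals (7.22%, all TESs 5.15%) and in all 6 libraries at 21 (1.02%, all TESs 0.882%). At 62 intervals (3.02%, all TESs 2.14%) it did so in all 3 active and no inactive library.

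Over all tandem intervals, coverage by peaks was highest at or next to the TSS. In steps of 100 bp, the share of intervals under a peak was highest at the TSS in 5 libraries and 100 bp after it in inactive replicate 1. In active replicate 1 it was 12.6% at 1000 bp before the TSS, 17.8% at 500 bp before, 25.3% at the TSS, 14.5% at 500 bp after and 8.19% at 1000 bp after. In inactive replicate 1 the same places gave 2.97%, 5.22%, 9.22%, 3.90% and 1.95%. In the 643 intervals with gaps of 3001 to 5000 bp the maximum lay elsewhere in inactive replicates 1 and 2, at -2600 and -1200 bp from the TSS, and within 100 bp of it in the other libraries. Counted from the TES of all intervals, the maximum lay 500, 500 and 600 bp after it with active SCP1 and 800, 400 and 400 bp with inactive SCP1. After isolated TESs the maximum lay 1000, 1000 and 1100 bp and 900, 900 and 1000 bp after the end. The place of the maximum after tandem TESs changed with gap length. In gaps of 1 to 500 bp it lay 400, 300 and 400 bp after the TES with active and 300, 300 and 400 bp with inactive SCP1. In gaps of 3001 to 5000 bp it lay 1100, 1100 and 3500 bp and 800, 900 and 500 bp after the TES.

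In the median, the peaks over the TSS reached further back towards the upstream gene than forward into the downstream gene. With active SCP1 their median extent before the TSS was 690, 495 and 1027 bp, and after it 476, 390 and 656 bp. With inactive SCP1 the medians were 352, 344 and 356 bp before and 324, 309 and 346 bp after. The difference between the medians of the 2 sides was thus smaller with inactive SCP1. Counted by peak, 55.2%, 54.5% and 55.4% with active and 46.6%, 57.8% and 49.8% with inactive SCP1 extended further before than after the TSS. These shares were near 50% and overlapped between groups.

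**Figure D2:**
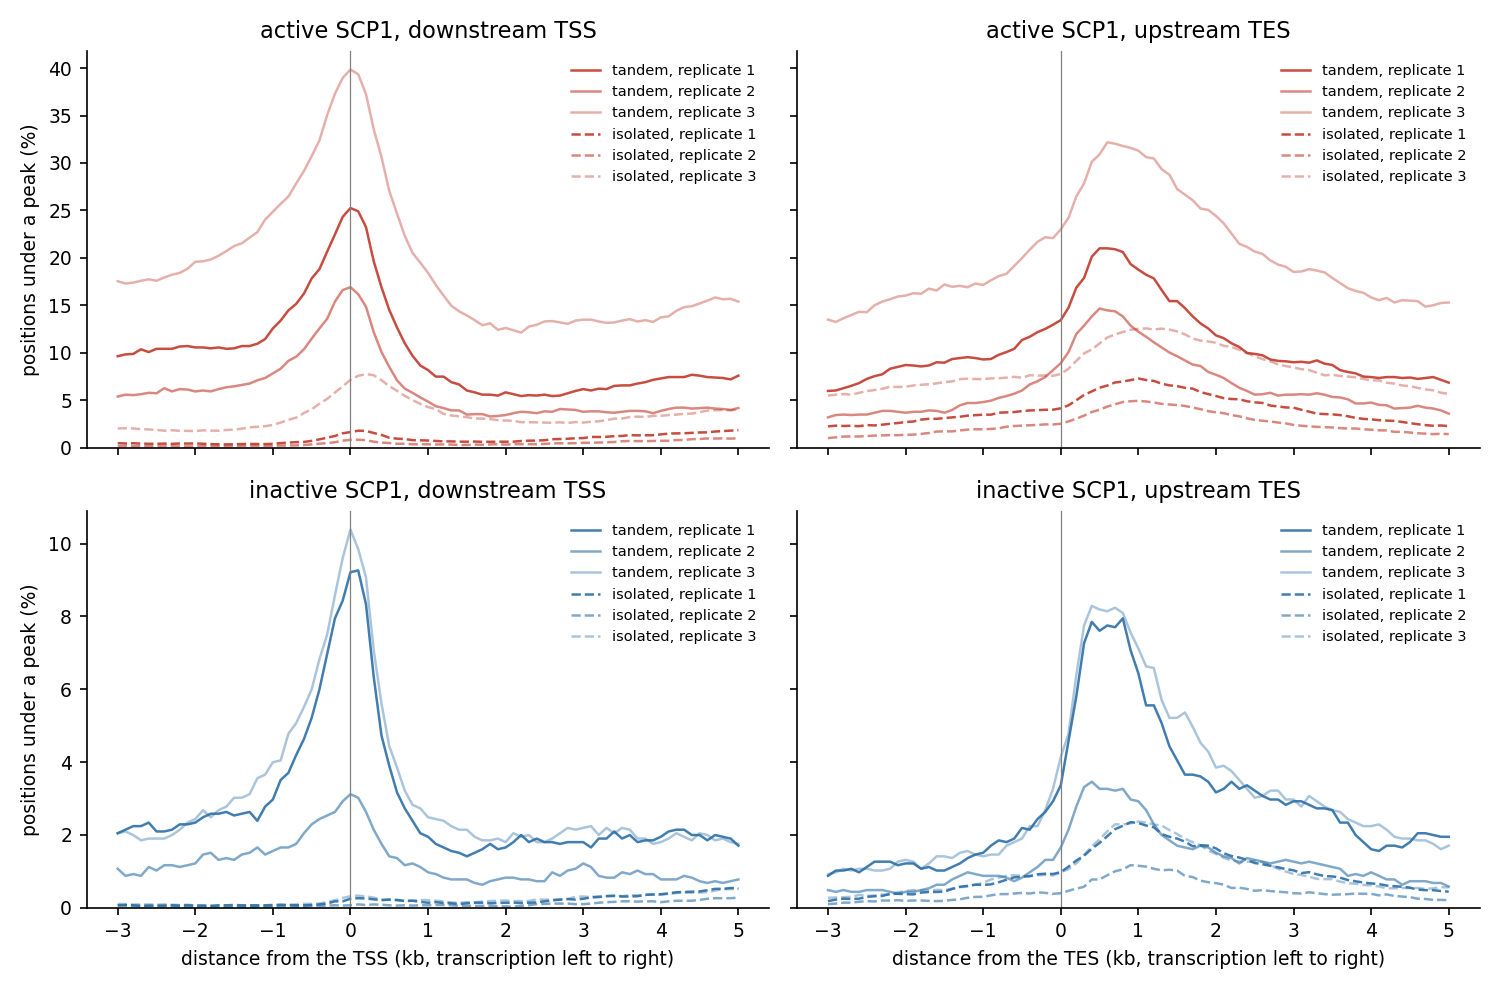
Share of positions under a peak, in percent, by distance from the downstream TSS (left) and the upstream TES (right), with active SCP1 above and inactive SCP1 below, each line 1 library, solid for tandem pairs and dashed for isolated gene ends. The solid lines on the left have their maximum at or within 100 bp of the TSS in all 6 libraries, and those on the right 400 to 800 bp after the TES.

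Tandem TSSs were also under peaks more often than places equally far behind the end of a gene with no close neighbour. At matched distances 5.01%, 3.27% and 9.74% of positions behind isolated ends were under a peak with active SCP1. The inactive libraries gave 1.38%, 0.637% and 1.39%. The tandem TSS share was 13.9 points higher (6 of 6 libraries, exact sign-flip p = 0.03125, 0.0417 after adjustment over the 12 added comparisons), and 7.93 points higher with equal peak numbers. It stood 4.09 to 7.50 times above these positions, while the tandem TES stood 2.96 to 4.23 times above isolated TESs, and the first ratio was the larger in 6 of 6 libraries (mean log2 of the quotient 0.62, exact sign-flip p = 0.03125).

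A second comparison was limited to genes whose own end was under a peak, and that are at least 5 kb long so that 1 short peak does not cover both ends. Among downstream genes of tandem pairs with such a peak, the TSS was also under a peak in 100 of 277, 53 of 195 and 223 of 426 with active SCP1 (36.1%, 27.2% and 52.3%), and in 9 of 68, 2 of 33 and 12 of 82 with inactive SCP1 (13.2%, 6.06% and 14.6%). Among isolated genes the TSS was under a peak in 35 of 872, 13 of 591 and 176 of 1393 with active SCP1 (4.01%, 2.20% and 12.6%), and in 1 of 237, 0 of 102 and 0 of 243 with inactive SCP1. The 2 counts of 0 allow shares of up to 2.94% and 1.23%, for counting error only. The tandem share was 21.7 points higher on average (6 of 6 libraries, exact sign-flip p = 0.03125, 0.0417 after adjustment over the 12 added comparisons). A long peak could still cover both ends, since the widest at tandem intervals were 18146, 12793 and 36613 bp with active and 7367, 5580 and 8171 bp with inactive SCP1. Whether 1 peak did so was not checked, and gene length was not matched.

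Shorter gaps were under peaks more often at both edges. In the 287 intervals with gaps of 1 to 500 bp the TSS was under a peak in 41.5%, 32.1% and 55.4% with active and in 20.2%, 8.36% and 22.3% with inactive SCP1. In the 643 intervals with gaps of 3001 to 5000 bp the shares were 14.8%, 8.40% and 28.0%, and 3.11%, 0.778% and 3.89%. The decrease averaged 20.1 points for the TSS and 13.7 points for the TES (6 of 6 libraries and exact sign-flip p = 0.03125 for each, 0.0417 after adjustment over the 12 added comparisons). In the shortest gaps nearly every TES under a peak shared that peak with the TSS. There the TES was under a peak in 31.1% and 1 peak covered both edges in 30.4% with active SCP1 (means), and in 7.90% and 7.55% with inactive SCP1. In gaps of 3001 to 5000 bp these means were 9.80% and 2.70%, and 1.87% and 0.104%. At these longest gaps the TSS share still exceeded the TES share, by 3.99 points on average, in 5 of 6 libraries (exact sign-flip p = 0.0625). The 5 kb limit itself marked no step: 28.9%, 19.1% and 50.7% with active and 9.21%, 5.26% and 11.2% with inactive SCP1 of the 152 gaps of 4501 to 5000 bp held a peak in their region, and 30.1%, 17.6% and 50.0% and 10.3%, 5.88% and 9.56% of the 136 tandem gaps of 5001 to 5500 bp.

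**Figure D3:**
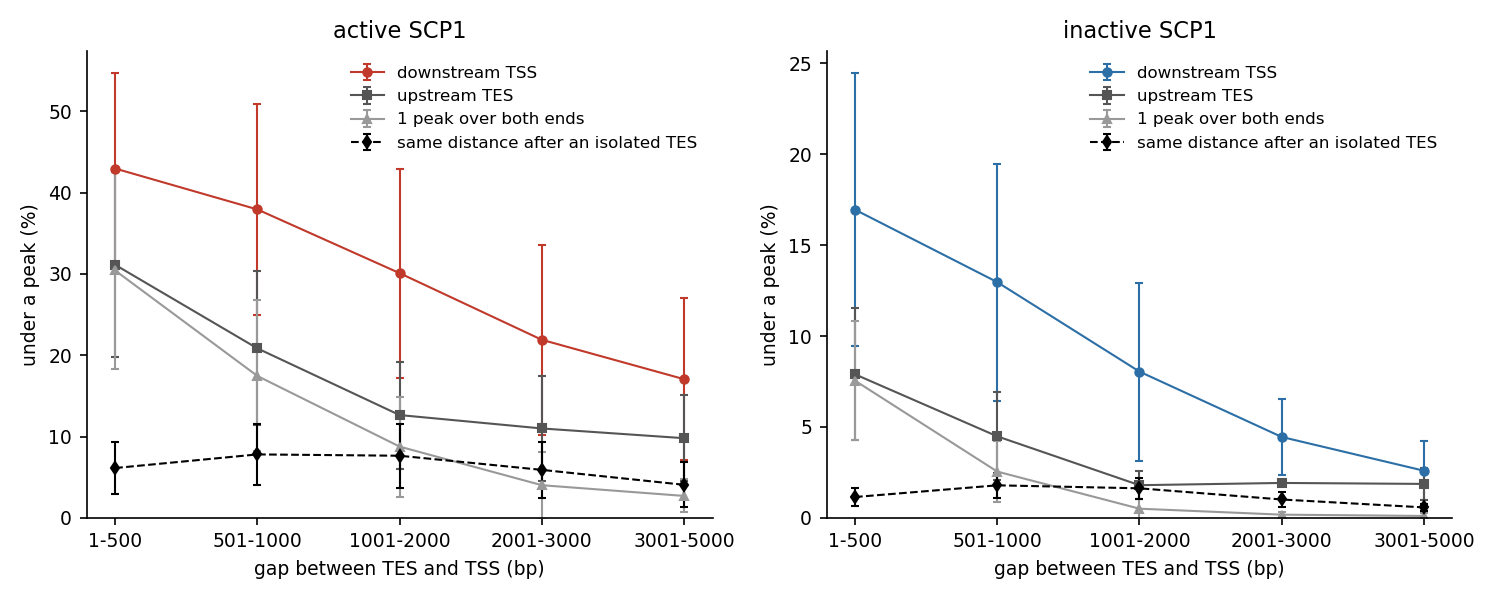
Share under a peak (percent, mean and SD of 3 libraries) by gap length for the downstream TSS, the upstream TES, intervals bridged by 1 peak, and positions at the same distance after an isolated TES, with active SCP1 on the left and inactive SCP1 on the right (the vertical axes differ). The TSS share fell from 43.0% to 17.1% with active and from 17.0% to 2.59% with inactive SCP1, and stayed above the dashed line in every gap class.

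Against other close pairs, tandem intervals held peaks more often than divergent ones, while the comparison with convergent ones depended on how the lists were cut. Standardised to the gap lengths of the tandem intervals, 6.21%, 3.05% and 26.8% of divergent intervals held a peak with active and 1.14%, 0.331% and 1.17% with inactive SCP1. The tandem share was 21.7 points higher (6 of 6 libraries, exact sign-flip p = 0.03125), and 11.8 points higher with equal peak numbers. Convergent intervals held a peak in 46.9%, 36.5% and 61.6% and in 21.2%, 12.1% and 23.0%, which put the tandem share 5.38 points lower (6 of 6 libraries, exact sign-flip p = 0.03125). With equal peak numbers the tandem share was 0.542 points higher instead (exact sign-flip p = 0.75), and at the common −log10 p cutoff 0.556 points higher (p = 0.21875 in the exact test). The shares on the plus and the minus strand differed by 0.61 points, which the exact sign-flip test did not separate from 0 (p = 0.1875).

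Peaks at tandem intervals were slightly stronger than the other peaks of the same list. The deposited fold enrichment (column 7 of the list, the mean signal of a peak divided by the background in that library) had a median of 3.66, 3.78 and 3.51 at tandem intervals and 3.38, 3.51 and 3.11 elsewhere with active SCP1. With inactive SCP1 the medians were 4.03, 3.90 and 4.05 against 3.82, 3.88 and 3.82. The mean log2 ratio of 0.0947 is small, with the same sign in 6 of 6 libraries (exact sign-flip p = 0.03125), and was 0.0491 with equal peak numbers. The deposited −log10 p-value (column 8) was higher by 0.892 in the median (6 of 6 libraries, exact sign-flip p = 0.03125). Ranked by fold enrichment, 47, 40 and 42 of the first 100 peaks of the active lists and 37, 22 and 38 of the inactive lists lay at tandem intervals, while 6.84%, 9.46%, 3.49%, 14.7%, 14.2% and 14.7% of all peaks did so. Of these first 100 peaks 39, 34 and 39 of the active lists covered a tandem TSS, and 28, 12 and 29 of the inactive lists. Of all peaks 4.06%, 5.16% and 2.18% of the active and 7.62%, 5.50% and 7.85% of the inactive lists did so. The first 100 are a smaller part of the longer active lists, so these counts are not compared between groups. Fold enrichment is set within a library, so its values are given side by side and not as a difference between groups.

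Over libraries, 1202 of the 2051 intervals held a peak in at least 1 list (58.6%, all close gaps 50.5%) and 849 in none (41.4%, all close gaps 49.5%). A peak in all 3 active libraries was found at 556 intervals (27.1%), beside 22.5% of all close gaps of any orientation. All 6 libraries held a peak at 152 intervals (7.41%, all close gaps 6.59%). At 171 intervals (8.34%, all close gaps 6.75%) a peak stood in all 3 active and no inactive library, and at 0 intervals (all close gaps 0) in all 3 inactive and no active library. These shares of whole regions are near those of all close gaps. Another 342 intervals (16.7%, all close gaps 15.7%) held a peak only in active replicate 3, the longest list.

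A single peak over both edges joined the 2 genes of 92 intervals in all 3 active libraries (4.49%, all close gaps 4.98%) and of 10 intervals in all 6 (0.488%, all close gaps 0.59%). In 42 of them (2.05%, all close gaps 2.31%) no inactive library held such a peak. The median gap of the 92 was 474 bp. Peaks over the TSS that left the TES free in all 3 active libraries marked 128 intervals (6.24%) with a median gap of 1794 bp. The reverse, peaks over the TES that left the TSS free, marked 11 intervals (0.536%) with a median gap of 4060 bp. Together these were 139 intervals (6.78%), and in all close gaps the same edge alone was under a peak in all 3 active libraries in 3.86%.

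The following intervals are named by fixed rules on these values, so their values are descriptions. The 8 intervals with the highest lowest fold enrichment over all 6 libraries began with RPL26-KRABD2, behind the gene of a protein of the large ribosomal subunit (GRCh38, chr17:8376705-8377515, minus strand, gap 811 bp). Its fold enrichment was 10.5, 10.6 and 9.11 with active and 10.9, 7.20 and 10.2 with inactive SCP1, and its −log10 p was 34.8, 32.8 and 30.6 and 30.9, 18.7 and 28.0. The KRABD2 TSS was under a peak in all 6 libraries, and the RPL26 TES only in active replicate 1. BRWD1-PSMG1 joins a bromodomain protein gene to the gene of a proteasome assembly chaperone (chr21:39183515-39184175, minus strand, gap 661 bp). Its fold enrichment was 13.2, 10.7 and 15.5 with active and 8.88, 6.92 and 8.19 with inactive SCP1. The PSMG1 TSS was under a peak in all 6 libraries.

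CAPRIN1-NAT10 links an RNA-binding protein gene to the gene of an RNA acetyltransferase over 3018 bp (chr11:34102611-34105628, plus strand). Its fold enrichment was 6.59, 5.65 and 7.79 with active and 5.79, 5.46 and 7.40 with inactive SCP1. In all 6 libraries the peak covered the NAT10 TSS and left the CAPRIN1 TES free. SF3A2-AMH lies behind a splicing factor gene of the U2 snRNP and before the gene of anti-Müllerian hormone (chr19:2248656-2249322, plus strand, gap 667 bp). Its fold enrichment was 6.99, 7.10 and 7.73 with active SCP1, in peaks of 7646, 5115 and 9398 bp over both edges. With inactive SCP1 it was 6.84, 5.93 and 7.17 in peaks of 2680, 1513 and 2098 bp, of which 1 reached the AMH TSS and none the SF3A2 TES.

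The remaining 4 of this group differed in the places of their peaks. RPL38-TTYH2, behind another ribosomal protein gene (chr17:74210656-74213570, gap 2915 bp), had a fold enrichment of 6.55, 6.65 and 6.73 with active and 6.20, 5.58 and 7.13 with inactive SCP1, over the TES in all 6 libraries. EEF2-DAPK3, behind the gene of translation elongation factor 2 (chr19:3971100-3976055, gap 4956 bp), had 6.01, 5.53 and 6.41 against 7.11, 6.55 and 6.62. These values belong to the peak at the EEF2 end, which covered the TES in every library but inactive replicate 2. The separate peaks nearer DAPK3 had 4.10, 4.89 and 5.29 with active and 3.92, 3.58 and 4.73 with inactive SCP1. They covered the DAPK3 TSS in active replicates 1 and 3 and in inactive replicate 1. MAZ-PRRT2 and CDC42EP5-LENG9 ranged from 6.19 to 8.81 and from 5.30 to 6.13 over the 6 libraries. The PRRT2 TSS was under a peak in active replicates 2 and 3, and peaks of CDC42EP5-LENG9 reached neither edge in any library.

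The 8 intervals with the strongest peaks in all 3 active and no peak in any inactive library mostly had the peak at the TSS. SMG1-ARL6IP1 joins the gene of a kinase of nonsense-mediated decay to that of a protein that shapes the endoplasmic reticulum (chr16:18801550-18804859, minus strand, gap 3310 bp), with a fold enrichment of 4.48, 4.93 and 4.74 and peaks over the TSS alone. DHX33-C1QBP links an RNA helicase gene to that of a mainly mitochondrial protein (chr17:5439156-5440916, minus strand, gap 1761 bp) and had 4.51, 5.63 and 4.69, also over the TSS alone. FYTTD1-LRCH3, behind an mRNA export adaptor gene (gap 3629 bp), had 4.47, 4.88 and 5.03, and PFDN5-MYG1, behind a prefoldin subunit gene (gap 244 bp), had 4.39, 4.95 and 6.25 over the TSS. HDAC3-DIAPH1, between a histone deacetylase gene and a formin gene (gap 1880 bp), had 4.42, 4.47 and 4.39, with the TSS reached in replicates 1 and 3.

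SEC16A-INPP5E, whose downstream gene encodes a phosphatase of the primary cilium (gap 259 bp), had a fold enrichment of 4.97, 4.92 and 4.61, over the TSS in all 3 active libraries. LRRC43-B3GNT4 (gap 237 bp) had 4.64, 4.50 and 5.63, and reached the edges only in replicate 3. HSD11B1L-RPL36 (gap 1772 bp) had the highest values of the 8, 8.48, 7.79 and 8.92, in peaks of 17919, 12178 and 21315 bp that entered the region without reaching either edge. None of the 8 intervals had a peak in the inactive lists. The −log10 p of their active peaks ran from 6.33 to 27.4, above the lowest value listed in any inactive library.

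The longest gaps that 1 peak bridged in all 3 active libraries were 3011 to 4766 bp long, of which 4 are described. MRPL12-SLC25A10, from a mitochondrial ribosomal protein gene to a mitochondrial carrier gene (chr17:81707518-81712283, plus strand, gap 4766 bp), was covered by peaks of 7237, 6679 and 9372 bp with active SCP1. With inactive SCP1 its peaks were 4900, 3622 and 5586 bp long, reached the SLC25A10 TSS in replicates 1 and 3, and left the MRPL12 TES free. JPT1-NT5C (3500 bp), GRK6-PRR7 (3103 bp) and CDK16-USP11 (3011 bp) were bridged by active peaks of 3887 to 19406 bp. With inactive SCP1 the peaks at JPT1-NT5C reached the TSS without the TES in replicates 1 and 3, and there was none in replicate 2. GRK6-PRR7 was bridged by 1 inactive peak, in replicate 3, and CDK16-USP11 by none.

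The pairs with the strongest peaks at the TSS and none over the TES in the active libraries were MED14-CXorf38, CRYZL1-DONSON, GGNBP2-DHRS11 and KDM4A-ST3GAL3. MED14-CXorf38, behind a Mediator subunit gene (chrX:40647562-40648304, minus strand, gap 743 bp), had a fold enrichment of 8.71, 8.40 and 12.3 with active SCP1, and 8.03 and 7.14 in inactive replicates 1 and 3. KDM4A-ST3GAL3, from a histone demethylase gene to a sialyltransferase gene (chr1:43705519-43707535, plus strand, gap 2017 bp), had 6.50, 7.74 and 8.09 with active SCP1, and 5.99 and 5.13 in the same 2 inactive replicates. All 4 had a peak over the TSS in these 2 replicates and none in inactive replicate 2, the shortest list.

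Among the pairs with the strongest peaks over the TES and none over the TSS were RPL38-TTYH2, RANBP1-ZDHHC8 and RPS19-CD79A, of which 2 have a ribosomal protein gene upstream. RPS19-CD79A, which ends before a gene of the B cell receptor (gap 4353 bp), had a fold enrichment of 4.66, 4.97 and 5.06 with active and 4.93, 4.22 and 5.97 with inactive SCP1. The peak covered the TES and not the TSS in all 6 libraries, and the inactive peaks, of 1670 to 2041 bp, were shorter than the active ones, of 5169 to 9196 bp.

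**Figure D4:**
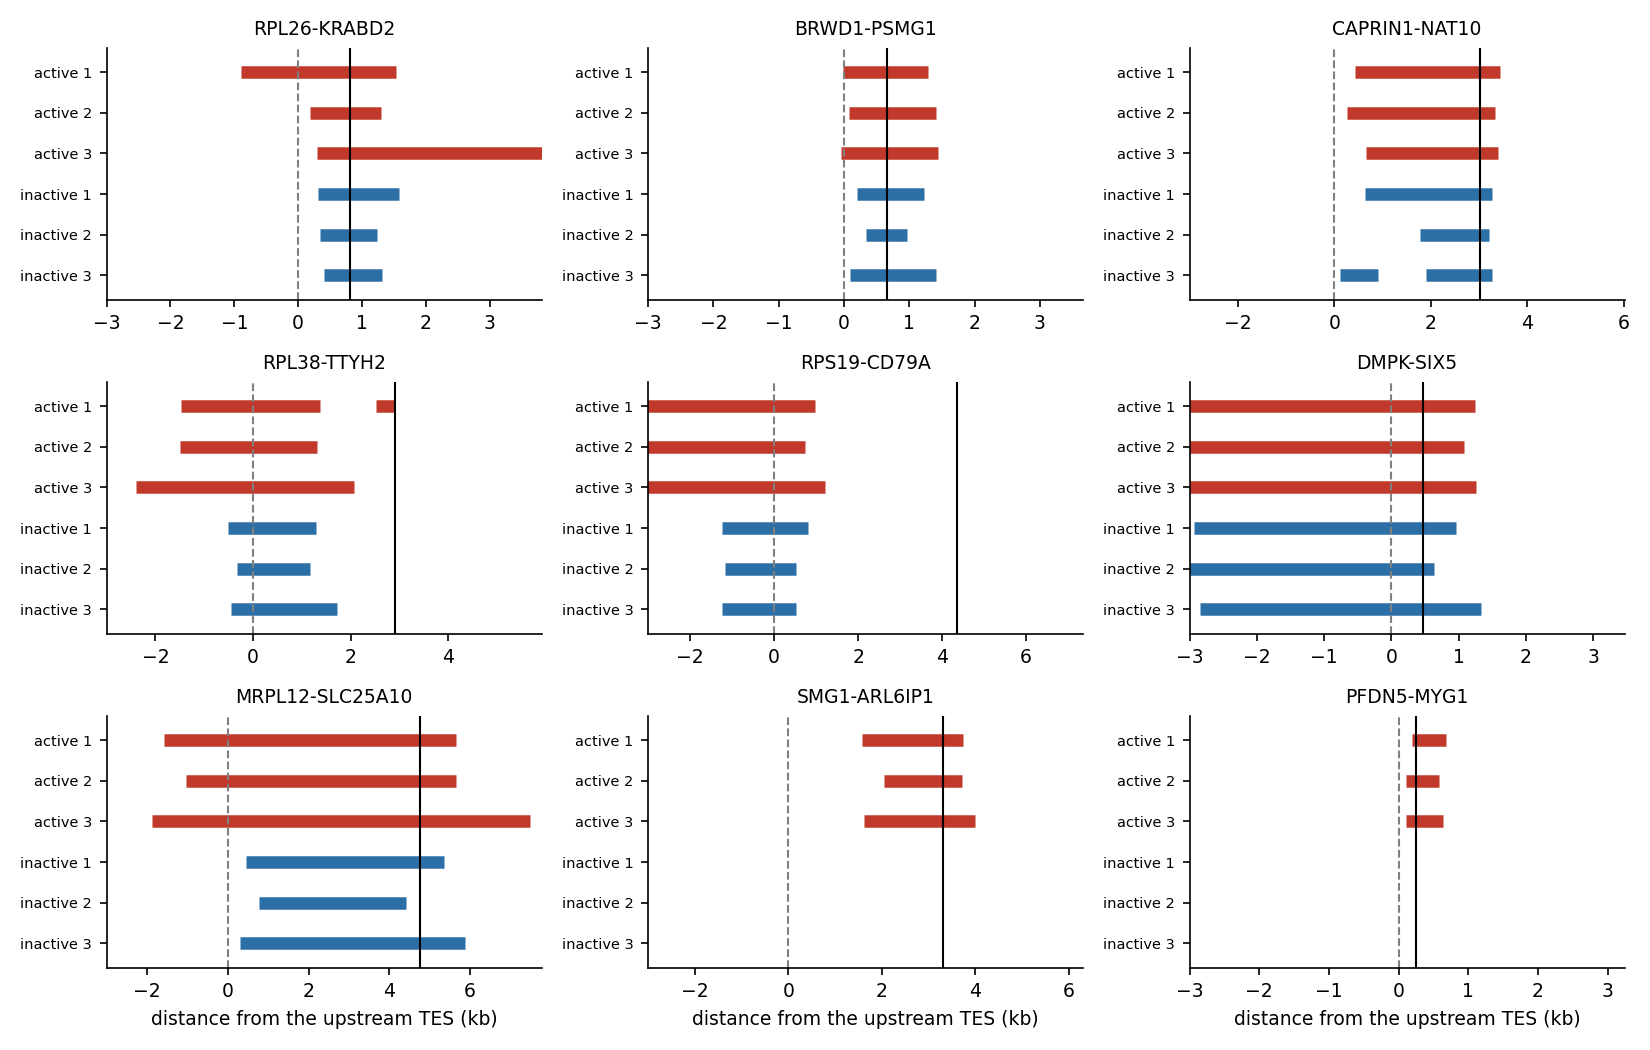
Extent of the peaks in 9 named intervals by distance from the upstream TES in kb (dashed line, TES; solid line, downstream TSS; red, active SCP1; blue, inactive SCP1; 1 row per library; peaks cut at the panel edges). Peaks at CAPRIN1-NAT10 and SMG1-ARL6IP1 begin after the TES, and those at RPL38-TTYH2 and RPS19-CD79A include one over the TES in every library. The inactive rows of SMG1-ARL6IP1 and PFDN5-MYG1 are empty.

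Tandem intervals that follow each other on 1 strand formed 320 runs of 3 or more genes, the longest with 13. In MCRIP2-WDR90-RHOT2-RHBDL1-STUB1 on chromosome 16 all 4 intervals held a peak in all 3 active libraries, and the last 2 intervals shared 1 peak of 12563 bp in replicate 1 and 27926 bp in replicate 3. The WDR90-RHOT2 interval, with a gap of 252 bp, held none with inactive SCP1. In GARRE1-GPI-PDCD2L-UBA2 on chromosome 19, around the gene of glucose-6-phosphate isomerase, all 3 intervals held weaker peaks with a fold enrichment of 2.65 to 3.24 in the active libraries. In SYMPK-RSPH6A-DMWD-DMPK-SIX5 on chromosome 19 the interval RSPH6A-DMWD held none, and DMPK-SIX5 (chr19:45769253-45769716, minus strand, gap 464 bp) was bridged by 1 peak in all 6 libraries, with a fold enrichment of 5.50, 5.27 and 6.50 with active and 4.82, 3.86 and 4.74 with inactive SCP1.

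By gene group, intervals next to genes of the translation machinery (cytosolic and mitochondrial ribosomal proteins, initiation and elongation factors) held a peak in all 3 active libraries in 41 of 65 cases (63.1%), beside 27.1% of all intervals. Examples with a peak in all 6 libraries were RPL26-KRABD2, RPL38-TTYH2, EEF2-DAPK3 and EIF4A1-CD68, behind a gene of the eIF4A helicase. Intervals next to genes of the mitochondrial respiratory chain, protein import and carriers held one in 24 of 47 (51.1%), for example NDUFA7-CD320 and UQCR11-MBD3. Those next to genes of RNA polymerases and RNA processing held one in 27 of 65 (41.5%), with SF3B3-IL34 and SRSF1-VEZF1 among those called in all 6 libraries. Genes with symbols of the proteasome and chaperone type (matched by symbol only, with PSMC3IP among them) gave 11 of 36 (30.6%). Zinc finger genes gave 23 of 78 (29.5%), and both were near the share of all intervals.

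Counts also differed by the side on which the group's gene lay, and not in 1 direction for every group. For translation genes it was 28 of 38 upstream (73.7%) and 14 of 28 downstream (50.0%), where all intervals gave 27.1%. For mitochondrial genes it was 15 of 23 (65.2%) and 9 of 24 (37.5%). Genes of RNA polymerases and RNA processing had 20 of 37 upstream (54.1%) and 7 of 36 downstream (19.4%), the latter below the share of all intervals. Genes with proteasome and chaperone symbols had 5 of 19 upstream (26.3%) and 6 of 17 downstream (35.3%), and zinc finger genes 18 of 61 (29.5%) and 14 of 56 (25.0%). These counts are descriptions, with no test.

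Few peaks lay in intervals next to genes of tissue-restricted families or next to replication-dependent histone genes, whose transcripts end in a stem-loop and carry no poly(A) tail. An interval was counted if either of its genes belonged to the group. Of all intervals 41.4% held no peak in any library, and 27.1% held one in all 3 active libraries. Of 92 intervals of tissue-restricted families (globins, keratins, olfactory receptors and the like) 79 (85.9%) held no peak in any library. A peak in all 3 active libraries was found at 3 (3.26%), namely HBA1-HBQ1, CGB3-SAXO3 and HBA2-HBA1. Of the 14 histone intervals 13 (92.9%) held none, and H2AC17-H3C12 held one in 1 active library. Of 277 intervals between genes of the same symbol family 25 (9.03%) held a peak in all 3 active libraries, where all intervals gave 27.1%. Near-identical neighbours such as the globin and chorionic gonadotropin genes can share reads, so their peaks are uncertain.

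**Figure D5:**
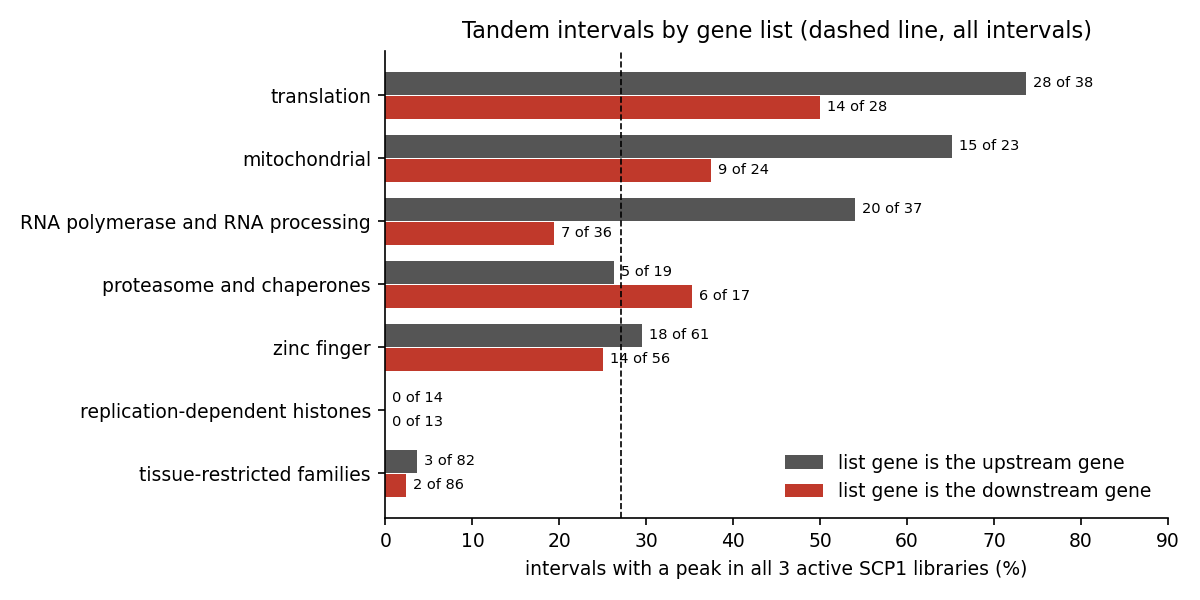
Share of tandem intervals with a peak in all 3 active SCP1 libraries, in percent, by gene list and by whether the list's gene lies upstream (grey) or downstream (red) of the interval, with counts beside the bars and the share of all intervals as a dashed line. Translation genes reach 28 of 38 upstream and 14 of 28 downstream, and the 14 upstream histone intervals have 0.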

How the data were processed

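pThr4 ChIP-seq peak lists of 6 HEK293 libraries were analysed. Per the labels, the authors' processing named cutadapt 4.6, Bowtie2 2.5.2, FastQC and hg38. The peak caller and its control are not given in the sources used here. The authors deposited 1 list per library in broad-peak layout, giving for each peak its fold enrichment (a ratio of signal over background), score, and −log10 of its p-value and q-value. Listed peaks have q of about 0.1 or less. The lists hold no counts, so depth is unknown and precision rests on 3 replicates per group. Nothing in the labels says whether biological replicates were separate cultures. Peak names carry "10" in replicates 1 and 2 and "5" in replicate 3 of both groups, with no meaning given.

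Gene spans came from the RefSeq table of GRCh38.p14, so a TSS or TES is the outermost one of a gene. Strand came from the RefSeq promoter table for 15812 genes and otherwise from GENCODE release 44 (no coordinates used), together 98.2% of 19974 protein-coding genes. Of 15260 genes in both sources, 15197 had the same strand. A further 73 close gaps had no orientation. An overlap of 1 bp counted. Groups were compared by exact permutation over libraries and measures within a library by exact sign-flip tests (Python 3.11.15, numpy, pandas), tested on simulated peaks. Named intervals were the 8 with a peak in all 6 libraries and the 8 in active libraries only (by the highest lowest fold enrichment), the 5 longest bridged gaps, 4 with the TSS and 4 with the TES alone, 4 runs and examples of 7 gene lists matched by symbol. A few intervals named by this rule are not reported here. Members, lists and tests were chosen with earlier results of these data known. A published study of pThr4 with another phosphatase served for style only.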

Additional observations from a re-analysis of the deposited data

Results flagged for a closer look

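In the full lists, peak width at tandem intervals went opposite ways in the 2 groups. With active SCP1 the median peak at tandem intervals was 1248, 994 and 1561 bp wide against 778, 820 and 786 bp for the other peaks of the list, wider in 3 of 3 libraries (mean log2 ratio 0.65). With inactive SCP1 it was 770, 799 and 745 bp against 835, 805 and 793 bp, narrower in 3 of 3 libraries (mean log2 ratio -0.07). The group means differ by 0.72 on the log2 scale, at the smallest p that the exact permutation test allows (p = 0.1). Without active replicate 3 the mean log2 ratio over the other 5 libraries was 0.15 instead of 0.29. With equal peak numbers the opposite directions were gone: the mean log2 ratio was -0.443 with active and -0.301 with inactive SCP1, and the groups then differed by -0.142 (p = 0.6, exact permutation). At a −log10 p of at least 6 both were also negative (-0.255 and -0.555). The comparison was made once values had been seen.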

How the results depend on the processing

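Of 12 planned results and 3 of those added after the values were seen, 13 kept their direction and their side of the threshold with equal peak numbers and at the common −log10 p cutoff. The share of tandem minus convergent intervals with a peak reversed under both (0.542 and 0.556 points), and it weakened to -0.853 points with gaps of at most 2 kb (exact sign-flip p = 0.375). The width ratio at tandem intervals, which passed no threshold over all libraries (log2 0.29), reversed to -0.372 and -0.405 under these 2 cuts and to -0.0152 at a −log10 q of at least 2. The log2 fold enrichment in intervals without another gene in the gap was 0.0947 (exact sign-flip p = 0.0625). In each case the cause was not tested. The group differences passed no threshold in any form, since the exact test cannot give a p below 0.1.

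Leaving out 1 library at a time kept every sign but raised the smallest possible sign-flip p to 0.0625. The ranges were 19.5 to 33.4 points for intervals with a peak, 8.13 to 15.2 for the TES, 13.5 to 25.0 for the TSS, 5.73 to 12.0 for both edges and 9.69 to 17.7 for the TSS among called intervals. Within libraries they were -9.74 to -6.67 for TES minus TSS, 12.3 to 18.3 and 4.49 to 7.29 for TSS and TES against isolated ends, -5.65 to -4.84 and 19.6 to 24.6 against convergent and divergent intervals, 0.0783 to 0.112 for log2 fold enrichment, 0.825 to 0.947 for −log10 p, 10.6 to 16.2 for the TSS against matched distances, 11.8 to 17.2 against divergent TSSs and 0.15 to 0.37 for the width ratio.

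Matched portions of lysate went to both groups, but the labels do not say that a number marks 1 lysate. Deviations of same-numbered libraries correlated at 0.035, 0.175 and 0.090 over intervals, and 5 of 6 libraries correlated best with their own number, so pairing was kept as an alternative. With the replicate block the exact sign-flip test over 3 pairs cannot go below p = 0.25, at unchanged values of -8.36, 15.7, 6.28, -5.38, 21.7, 0.0947, 0.892, 13.9 and 14.9. With replicates 1 and 2 only, whose peak names share a label, the values were -6.78, 12.9, 4.83, -5.91, 20.6, 0.0765, 0.817, 11.1 and 12.4 (exact p = 0.125 each), in the order TES minus TSS, TSS and TES against isolated ends, convergent, divergent, log2 fold, −log10 p, matched distance and divergent TSS. This alternative and 12 comparisons were chosen after seeing the data. These comparisons were the TSS against matched distances, divergent TSSs and the start of the upstream gene, and the quotient of the 2 ratios. Further ones were the TES against convergent TESs and the end of the downstream gene. Both decreases with gap length and TSS minus TES at the longest gaps were also added. The rest were the genes with a peak over their own end, the strands and the width ratio. Adjusted over the 12, each of their exact sign-flip p-values of 0.03125 became 0.0417.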
